A study of Drosophila melanogaster with 5 samples.

Results

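Genes that build the Drosophila centriole and centrosome were followed as arrested spermatogonia were released into the spermatocyte program. The members were asl, Sas-4, Sas-6, ana1, ana2, ana3, SAK, cnn, Plp and Cep135. They were taken by gene name, by a rule that does not use their values, but were chosen with earlier results of these data known. All 10 of 10 were found among the 14819 genes and 17528 features (genes and transposons) of the authors' table. Poly(A)+ RNA was sequenced from whole testes with seminal vesicles, pooled from about 100 pairs per library, with 1 library each for no heat shock (no HS) and for 8, 16, 24 and 32 h post heat shock (PHS). All males were of the genotype hs-bam; bam[1]/bam[86], grown at 25 °C, so that the no HS males also had the bam mutant alleles and the transgene. The transgene puts bam under a heat shock promoter, which responds in somatic as well as germ cells. The PHS males were given 30 min at 37 °C as mid- to late-stage pupae. The libraries include 0 from heat-shocked males without the transgene, so that the response to heat and the response to Bam cannot be told apart here.

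A centriole is a short barrel of microtubules that duplicates in step with the cell cycle. The kinase encoded by SAK (Plk4) starts a new centriole on the side of an old one, where Ana2 and Sas-6 assemble the cartwheel that sets its symmetry. Sas-4, Ana1 and Cep135 then build and lengthen the wall, and Asl, Cnn and Plp join the centriole to the pericentriolar material (PCM), the protein matrix from which microtubules grow. Spermatogonia duplicate their centrioles in every cycle, whereas in Drosophila spermatocytes the duplicated centrioles grow long during the extended G2 phase and dock at the cell surface as short cilia before they serve the meiotic divisions.

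Levels are given as normalized CPM, the reads of a gene scaled to a library of 1000000 reads by the authors' normalization. Between 21461541 and 28766676 reads fell on features in the PHS libraries, and 10356663 in no HS, so that the no HS library limits the precision of each comparison with it. Changes are differences of log2(CPM + 1), and beside them stand 95% Clopper-Pearson intervals for the log2 ratio of CPM, computed from the reads of both libraries. The intervals cover counting error only. With 1 library per time point the spread between replicates is unknown, so differences stand without replication and without p-values. In RNA from whole testes, fewer cells of a type and less RNA per cell cannot be told apart. As a check of the 8 h PHS label, bam, whose reads may come from the transgene or the mutant alleles, was at 128 CPM at 8 h PHS, against 64.7 CPM in no HS. It was at 90.4 (16 h), 74.2 (24 h) and 60.5 CPM (32 h PHS), and at 32 h PHS below no HS, so it does not check the labels of the late libraries.

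The 10 genes did not move as a block. The clearest change was in ana2, whose RNA fell to 44.1% of its no HS level at 32 h PHS. cnn, Sas-4, SAK and Sas-6 were also lower at 32 h PHS, by less than 1.5-fold, while asl, Cep135, ana1 and Plp ended close to where they began. No member was higher by more than 1.5-fold at any time. The plot of levels by library shows each gene over the time course, in 3 groups by role.

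**Figure D1:**
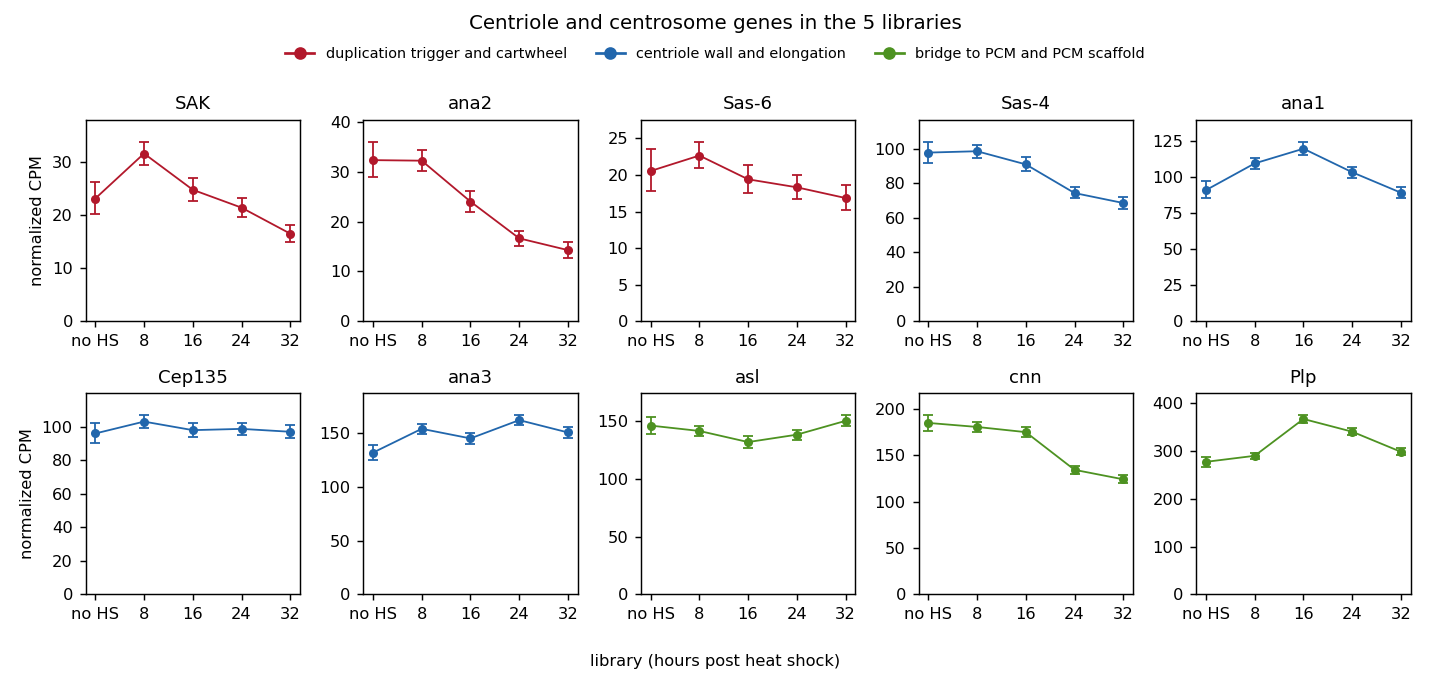
Normalized CPM (y axis, from 0, with a scale of its own in each panel) of the 10 genes in the libraries of no HS and of 8, 16, 24 and 32 h PHS (x axis). Each point is 1 library and each bar its exact 95% Poisson interval, which covers counting error only. ana2 goes down after 8 h PHS to 14.3 CPM at 32 h PHS, cnn and Sas-4 step down between 16 and 24 h PHS, and Cep135 stays between 96.0 and 103 CPM.

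Among the genes that start duplication, ana2 (FBgn0027513, chromosome 2R from 8898729 to 8900211 on BDGP6.54) encodes the STIL-related protein that Plk4 phosphorylates so that it can recruit Sas-6. It was at 32.3 (no HS), 32.2 (8 h), 24.0 (16 h), 16.6 (24 h) and 14.3 CPM (32 h PHS), resting on between 332 and 863 reads per library. The first 2 values were alike, and each later one was below the one before it. Against no HS it had changed by -0.41 at 16 h PHS (interval -0.63 to -0.22), -0.92 at 24 h (-1.16 to -0.75) and -1.13 at 32 h (-1.40 to -0.96). At 32 h PHS it was thus past the 2-fold line, but the interval of its ratio reaches across that line, and with a pseudocount of 5 CPM in place of 1 the change was -0.95. By the size of its decrease it ranked 112 among the 6733 features with at least 10 CPM at 32 h PHS or in no HS. The largest step was from 16 to 24 h PHS, a change of -0.50 (interval -0.71 to -0.35). Of the exonic bases of ana2, 4.89% overlap Sec31 on the other strand, and Sec31 was at 264 CPM at 32 h PHS, against 259 CPM in no HS.

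SAK (FBgn0026371, chromosome 3L from 21512141 to 21515887), the kinase that licenses duplication, was at 23.1 (no HS), 31.5 (8 h), 24.7 (16 h), 21.4 (24 h) and 16.5 CPM (32 h PHS). It was therefore highest at 8 h PHS and lowest at 32 h PHS, the latest time. Against no HS it had changed by 0.43 at 8 h PHS (interval 0.24 to 0.66) and -0.46 at 32 h PHS (-0.72 to -0.25), and the intervals at 16 and 24 h held 0. Set against 8 h PHS, the 32 h PHS library was lower, with a change of -0.90 (interval -1.11 to -0.76). Of its exonic bases 18.1% overlap M6 on the other strand, and since whether counting used strand is not given in the sources used here, reads there may come from either gene. M6 was at 23.4 (no HS), 22.4 (8 h), 24.1 (16 h), 22.2 (24 h) and 20.1 CPM (32 h PHS).

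Sas-6 (FBgn0039731, chromosome 3R from 29995357 to 29997034), the spoke protein of the cartwheel, was at 20.5 (no HS), 22.7 (8 h), 19.4 (16 h), 18.3 (24 h) and 16.8 CPM (32 h PHS). Like SAK it was highest at 8 h and lowest at 32 h PHS, with smaller differences. The change at 32 h PHS was -0.27 (interval -0.53 to -0.04), and at the 3 earlier times the interval held 0. With 211 reads in no HS, a change of this size is near the limit of what that library can resolve.

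Among the genes of the centriole wall, Sas-4 (FBgn0011020, chromosome 3R from 7151367 to 7154219), the CPAP-related protein that adds the wall microtubules, was the member that changed most. It was at 97.8 (no HS), 98.5 (8 h), 90.9 (16 h), 74.3 (24 h) and 68.5 CPM (32 h PHS). The first 3 libraries lay above both later ones, and the largest step was from 16 to 24 h PHS (-0.29, interval -0.38 to -0.20). Against no HS this gave -0.39 at 24 h (-0.50 to -0.29) and -0.51 at 32 h PHS (-0.63 to -0.40).

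ana1 (FBgn0262167, chromosome 3R from 24530576 to 24536395), whose protein turns a new centriole into one that can duplicate and promotes its elongation, took another course. It was at 90.9 (no HS), 109 (8 h), 119.7 (16 h), 103 (24 h) and 89.1 CPM (32 h PHS). It was thus highest at 16 h PHS, with a change of 0.39 (interval 0.29 to 0.51), and at 32 h PHS the change was -0.03 with an interval of -0.14 to 0.08. Against a baseline averaged over no HS and 8 h PHS the change at 16 h was smaller, 0.25.

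Cep135 (FBgn0036480, chromosome 3L from 15116737 to 15128029), also known as Bld10 and needed for long spermatocyte centrioles, was the steadiest of the 10. Its levels were 96.0 (no HS), 103 (8 h), 98.0 (16 h), 98.8 (24 h) and 97.0 CPM (32 h PHS), and the highest was 1.07 times the lowest. At 32 h PHS the interval of its log2 ratio was -0.09 to 0.12. ana3 (FBgn0266111, chromosome 2R from 12344983 to 12351325), the Rotatin-related gene that keeps centrioles intact, was lowest in no HS, at 132 CPM, and then at 154 (8 h), 145 (16 h), 162 (24 h) and 151 CPM (32 h PHS). Its changes lay between 0.14 and 0.30, with every interval above 0, and with that averaged baseline they were 0.02 (16 h), 0.18 (24 h) and 0.08 (32 h).

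Among the genes that link the centriole to the PCM, cnn (FBgn0013765, chromosome 2R from 13439314 to 13450475), the main scaffold of the mitotic PCM, was lower at the late times. It was at 185 (no HS), 180.4 (8 h), 175 (16 h), 134 (24 h) and 124 CPM (32 h PHS). As for Sas-4, the first 3 libraries lay above both later ones, with the largest step from 16 to 24 h PHS (-0.38, interval -0.45 to -0.32). Set beside no HS, cnn changed by -0.46 at 24 h (-0.54 to -0.38) and -0.57 at 32 h PHS (-0.66 to -0.49), just short of 1.5-fold. cnn has 12 annotated transcripts, among them testis forms, which the count per gene does not tell apart.

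Plp (FBgn0086690, chromosome 3L from 15066081 to 15094724), the pericentrin-like protein that runs out from the centriole wall, was the member with the most reads. It was at 277 (no HS), 290.0 (8 h), 367 (16 h), 340.5 (24 h) and 298 CPM (32 h PHS). Like ana1 it was highest at 16 h PHS, with a change of 0.40 (interval 0.34 to 0.47), and it was near its first level at 32 h PHS, with a change of 0.10 (0.04 to 0.17). Plp and Cep135 are 22012 bases apart on chromosome 3L. asl (FBgn0261004, chromosome 3R from 5603236 to 5606543), which recruits Plk4 to the centriole and PCM proteins to its wall, varied little. It was at 146 (no HS), 142 (8 h), 132 (16 h), 138 (24 h) and 150.3 CPM (32 h PHS), and only at 16 h PHS did its interval (-0.24 to -0.06) lie clear of 0.

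**Figure D2:**
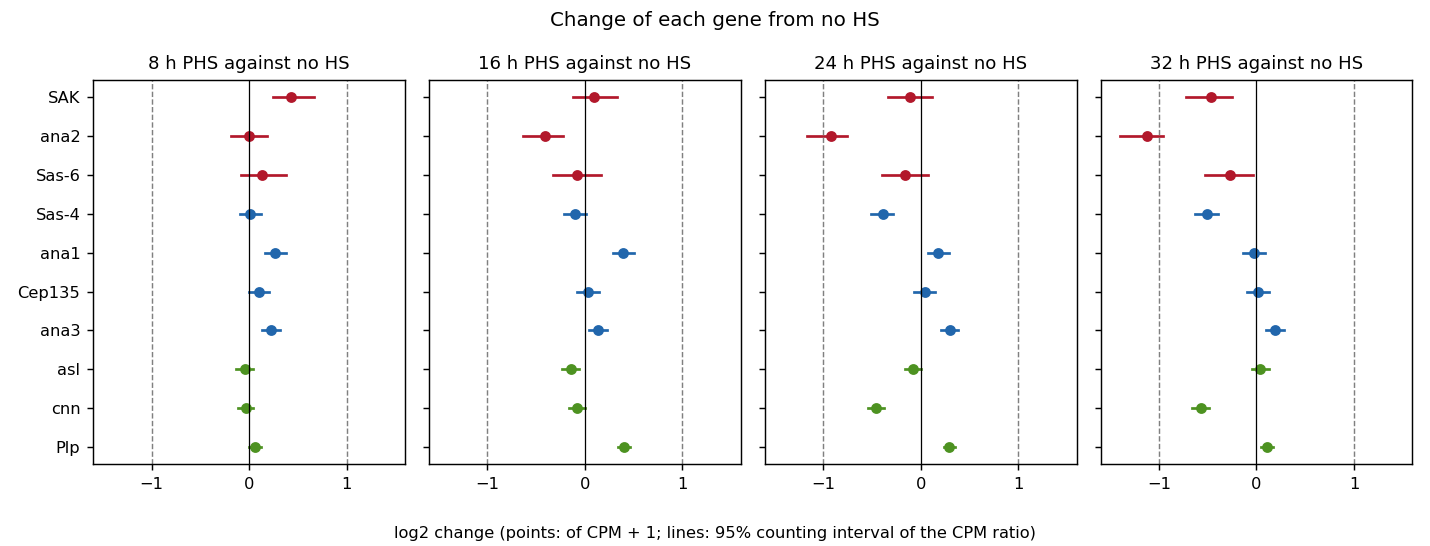
Change of each gene (rows, coloured by the 3 roles of the plot of levels) from no HS at 8, 16, 24 and 32 h PHS (panels). Points are differences of log2(CPM + 1), lines the 95% counting intervals of the log2 ratio of CPM, and dashed lines mark 2-fold. No gene is beyond 2-fold at 8, 16 or 24 h PHS, and ana2 alone is beyond it at 32 h PHS, at -1.13.

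The members were counted past 2-fold beside all 17528 features. At 8 h PHS 0 of the 10 were lower and 0 higher, against 0.165% and 0.2% of all features. At 16 h PHS the counts were again 0 and 0, against 0.416% and 0.228%, and at 24 h PHS 0 and 0, against 0.987% and 0.548%. At 32 h PHS 1 of the 10 was lower and 0 were higher, against 1.18% and 1.13%. Among features with at least 10 CPM in a library of the pair, the shares past 2-fold at 32 h PHS were 2.35% and 1.16%. A line at 1.5-fold was read among features that reached 10 CPM in a library of the pair, since all 10 members had at least that level in each of the 5 libraries. At 8 h PHS 0 members were past it in either direction, against 0.704% of those features lower and 1.08% higher, and at 16 h PHS 0 in either direction, against 2.67% lower and 0.959% higher. At 24 h PHS 1 member, ana2, was lower and 0 were higher, against 5.07% and 3.15%. At 32 h PHS ana2 was again the 1 lower member and 0 were higher, against 7.08% and 3.83%. With 10 members each gene weighs 10%, so that a count of 1 is the smallest above 0 that could be seen. At the 1.5-fold line it is near the shares of lower features at 24 and 32 h PHS. At the 2-fold line 10% is above the share of lower features at 32 h PHS, but it rests on ana2 alone.

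The median change of the 10 genes was 0.08 (8 h), -0.02 (16 h), -0.09 (24 h) and -0.15 (32 h PHS). For features of at least 10 CPM in a library of the pair the median was 0.01 at 8 h and -0.00 at 32 h PHS, and the middle 50% of them lay between -0.23 and 0.19 at 32 h. Below that range at 32 h PHS were 5 members (ana2, cnn, Sas-4, SAK and Sas-6), 4 were within it, and ana3 was above its edge. By definition the range leaves out 50% of these features, as many below it as above it. All 3 genes of the trigger and cartwheel were among the 5 below it, with 1 of the 4 wall genes and 1 of the 3 genes at the PCM. Sas-6 was close to the edge, at -0.27, and its interval (-0.53 to -0.04) reaches across it. Those 3 genes are also the members with the fewest reads in no HS (Sas-6 211, SAK 237 and ana2 332), and a pattern by role was not tested. The summed level of the 10 was 1026 CPM at 32 h PHS, against 1101 CPM in no HS.

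Within the heat-shocked testes, 32 h PHS was set against 8 h PHS, which leaves out the no HS library and its lower depth. ana2 (-1.12, interval -1.36 to -0.99) and SAK (-0.90) were lower by more than 1.5-fold and 0 members were higher, against 8.05% and 3.09% of features. The changes of the next members were -0.54 for cnn (interval -0.61 to -0.47), -0.52 for Sas-4 (-0.61 to -0.43) and -0.41 for Sas-6 (-0.61 to -0.24). ana1 was at -0.29 (-0.38 to -0.22), Cep135 at -0.09 (-0.17 to -0.01), asl at 0.09 (0.02 to 0.15), and the intervals of ana3 and Plp held 0.

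To compare levels between genes, CPM was divided by the exonic length of each gene. That length takes the exons of all annotated transcripts together, so a gene read mainly from shorter forms comes out too low. asl has 1 annotated transcript, whereas cnn and Plp have 12 each. On this scale asl had the highest mean over the libraries, 44.4 CPM per kb, and its lowest library (41.4) was above the highest library of each other member. SAK had the lowest mean, 6.95 CPM per kb, and its highest library (9.36) was below the lowest of each other member. Between them, Sas-4 (mean 30.7), Plp (29.2), Cep135 (27.6), cnn (25.8) and ana3 (23.7 CPM per kb) had ranges that overlapped from each gene to its neighbour in the order, so that neighbours are not ordered beyond their spread over the libraries. Members further apart could be, since the lowest library of Cep135 (26.9) was above the highest of ana3 (25.9 CPM per kb). The libraries are different time points, so this spread is not that of replicates. Next came ana1 (18.3), ana2 (16.7) and Sas-6 (13.0 CPM per kb), again with overlap between neighbours, while the lowest library of ana1, at 15.9 CPM per kb, was above the highest of Sas-6. In this order ana2 stood at place 9 of 10 at 32 h PHS, with 9.97 CPM per kb, and at place 6 in no HS, with 22.6 CPM per kb.

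**Figure D3:**
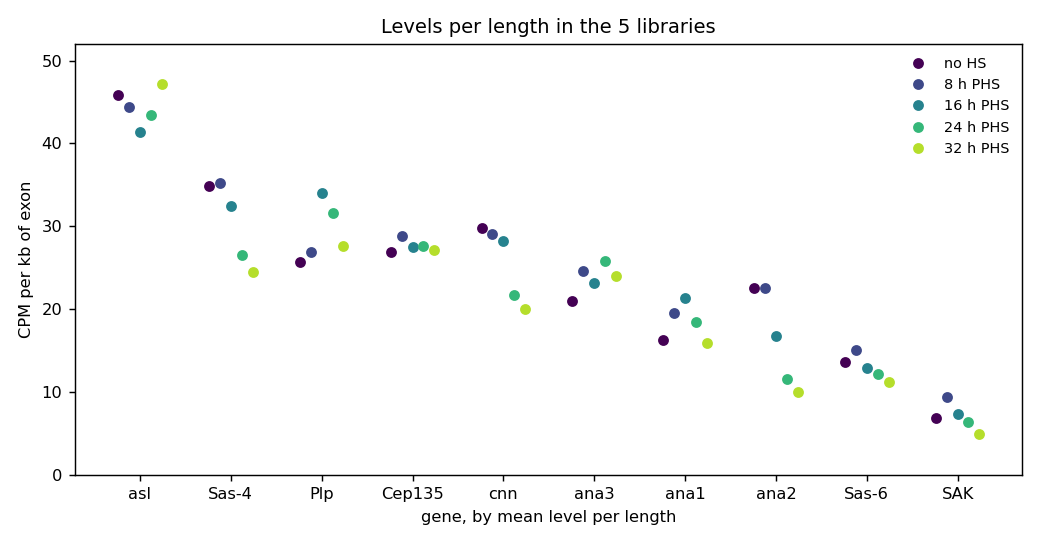
CPM per kb of exon (y axis, from 0) of the 10 genes (x axis, by their mean) with 1 point for each library, dark to light from no HS to 32 h PHS. asl stands above and SAK below the others, and ana2 spreads from 22.6 CPM per kb in no HS to 9.97 at 32 h PHS.

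Other genes of the same structures were read from 3 lists. Of 12 partners in centriole duplication and length, 1 was lower and 0 were higher past the 2-fold line, both at 24 and at 32 h PHS. Of all features, 0.987% were lower and 0.548% higher at 24 h PHS, and 1.18% and 1.13% at 32 h PHS. The median change of the partners at 32 h PHS was 0.03. The sign of that median is not settled, since it was -0.04 over the 10 of them with at least 10 CPM and 0.13 with the averaged baseline. The gene past the line was Cp110, whose protein caps the distal end of the centriole, at 47.2 (no HS), 42.0 (8 h), 35.0 (16 h), 22.0 (24 h) and 22.8 CPM (32 h PHS). Its change was -1.07 at 24 h PHS (interval -1.27 to -0.93) and -1.02 at 32 h PHS (-1.23 to -0.87), so that both intervals cross the 2-fold line. Gorab, a cartwheel-associated protein, had the next largest change at 32 h PHS, with 18.4 CPM, against 33.2 CPM in no HS (-0.82, interval -1.06 to -0.64). Cep97, the partner of Cp110 in the cap, was named after the values had been seen, and was at 94.1 CPM at 32 h PHS, against 76.3 CPM in no HS (0.30, interval 0.18 to 0.42).

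Over 21 genes of the PCM and the gamma-tubulin complex the median change at 32 h PHS was -0.11, and -0.18 over the 17 with at least 10 CPM. Of the 21, 1 was lower and 0 were higher by more than 2-fold, against 1.18% and 1.13% of all features. The gene was aurA, the centrosomal Aurora A kinase, at 37.3 CPM at 32 h PHS, against 82.4 CPM in no HS (-1.12, with an interval that began at -1.28 and ended just beyond 2-fold). Mink was at 30.4 CPM at 32 h PHS, against 59.7 CPM in no HS (-0.95, interval -1.13 to -0.82). spd-2, whose protein recruits Cnn to the centriole, was named after the values had been seen. It was at 83.2 CPM at 32 h PHS, against 150.4 CPM in no HS (-0.85, interval -0.95 to -0.76). The testis gamma-tubulin ring genes t-Grip84 and t-Grip128, with Mzt1, a testis gene in Drosophila, had at most 3 reads in every library, so that no change in them was detectable at this depth.

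Of 12 ciliary and transition zone genes, 0 were lower and 1 was higher by more than 2-fold at 32 h PHS, against 1.18% and 1.13% of all features. The median change of the 12 was 0.39. The size of that median depends on the pseudocount and on the filter. Of the 12 genes, 6 were under 10 CPM both at 32 h PHS and in no HS. The median was 0.22 with a pseudocount of 5 CPM, and 0.29 over the 4 genes with a mean of at least 10 CPM. Over the 6 genes with at least 10 CPM in a library of the pair it was 0.43, but that filter lets in genes that reached 10 CPM at 32 h PHS alone. The gene was CG9170, which RefSeq names Cep164, a protein of the appendages that dock centrioles at the membrane in vertebrates. It was at 41.9 (no HS), 39.7 (8 h), 33.1 (16 h), 56.6 (24 h) and 86.2 CPM (32 h PHS), with a change of 0.43 at 24 h PHS (interval 0.28 to 0.59) and 1.02 at 32 h PHS (0.89 to 1.19). B9d1, a transition zone gene, was at 12.0 CPM at 32 h PHS, against 6.04 CPM in no HS (0.88, interval 0.59 to 1.41), and reached 10 CPM in the 32 h PHS library alone.

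Beside these lists, all 13 genes of DNA replication and 5 of 15 genes of mitosis were lower by more than 2-fold at 32 h PHS. Of features with at least 10 CPM in a library of the pair, 2.35% were. The medians of replication and mitosis were -1.49 and -0.73, against the median of -0.15 over the 10 centriole and centrosome genes. These comparisons share the no HS library. The lists were chosen with earlier results of these data known and were not tested against each other.

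**Figure D4:**
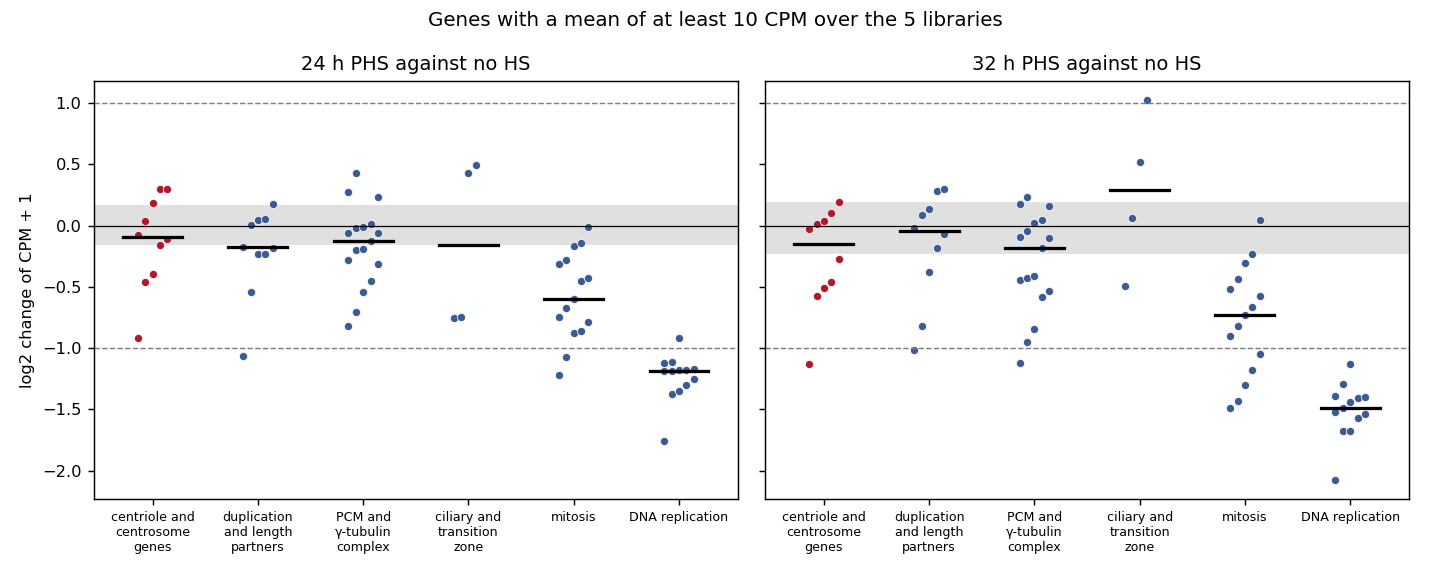
Difference of log2(CPM + 1) from no HS (y axis) at 24 h PHS (left) and 32 h PHS (right) for the genes of 6 lists with a mean of at least 10 CPM over the libraries. Points are genes, black bars list medians, the grey band holds the middle 50% of features with at least 10 CPM in a library of the pair, and dashed lines mark 2-fold. At 32 h PHS the bar of the centriole and centrosome genes is at -0.15 and that of DNA replication at -1.49.

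The pattern over the 5 libraries was compared between genes for the 2 members whose highest level was at least 1.5 times their lowest, ana2 and SAK. Likeness was the Euclidean distance between the 5 values of log2(CPM + 1) after each gene's mean was taken off, among 6309 protein-coding genes with at least 10 CPM in every library. Nearest to ana2 were borr (distance 0.05), a subunit of the chromosomal passenger complex, CG5757 (0.07) and RecQ4 (0.09), a helicase of replication initiation. borr was at 57.4 CPM at 32 h PHS, against 130.1 CPM in no HS. Nearest to SAK were corolla, a synaptonemal complex gene, CG5235 and Polr2G, each at a distance of 0.13. These distances rest on 1 library per time point and are a description.

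The make-up of the tissue moved over the same hours. Summed over 10 spermatocyte markers the level was 91.4 (no HS), 99.1 (8 h), 83.3 (16 h), 312 (24 h) and 961 CPM (32 h PHS), with 9 of the 10 higher at 32 h PHS than in no HS, and sa at 0 in no HS. Most of the sum at 32 h PHS was in Rbp4 (399.6 CPM) and fest (288.7 CPM). At that time fzo, can and sa were at only 2.62, 0.76 and 0.38 CPM. aly was at 28.7 CPM, against 26.3 CPM in no HS, and mia was lower, at 23.4 CPM against 27.8 CPM. Over 6 germ line genes the sum was 1162 CPM at 32 h PHS, against 1495 CPM in no HS, with 1 of 6 higher. No germ line gene was at 0 in any library, and germ cells are the main cell type in the labels. Over 4 sheath muscle genes it was 1185 CPM at 32 h PHS, against 929 CPM in no HS, with 4 of 4 higher. The 4 cyst cell genes summed to 137 CPM at 32 h PHS, against 179.5 CPM in no HS, with 2 of 4 higher and a median change of 0.06. Most of that difference was in zfh1, at 64.7 CPM at 32 h PHS, against 114 CPM in no HS. The 2 hub genes summed to 91.5 CPM at 32 h PHS, against 97.1 CPM in no HS, with 1 of 2 higher. Markers of accessory gland, blood cells and fat body summed to at most 12.3 CPM in any library, with Acp26Aa at 0 at 8, 16 and 32 h PHS and Lsp2 at 0 at 32 h PHS. The part of these shifts in the changes of the centriole and centrosome genes was not tested.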

How the data were processed

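The deposited table holds log2 of normalized CPM + 1 for 5 libraries, made by the authors. According to the study's methods and the submitters' processing notes, reads were trimmed with Trim Galore 0.4.3, aligned with STAR 2.5.3 to BDGP6, filtered with SAMtools 1.4.1 for mapping quality and proper pairs, assigned to genes by featureCounts (Subread 1.5.0), and scaled by TMM in edgeR 3.34.0 under R 4.1.0. Reads that fit several places are mostly lost by that filter. Each column was matched to its sample by the column name in the labels, and 0 columns were left over.

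Values were taken back to CPM by the antilog. In each library 100% of them came out as whole reads, within 0.05 of a read. No count model was fitted, since each group has 1 library. A gene was counted as changed beyond 2-fold, or 1.5-fold, on the log2(CPM + 1) scale. The steps were tested on simulated data.

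Coordinates and exonic lengths are from the Ensembl annotation BDGP6.54, a later release than the authors used, and no coordinates were converted. Symbols missing from the table were matched through RefSeq synonyms, and 7 genes of the lists were not analysed here. The genes named are the 10 members, genes of the other centrosome lists past 2-fold at 24 or 32 h PHS with at least 10 CPM, the 2 with the largest change at 32 h PHS in each list, and the 3 nearest in pattern. The members and lists were chosen with earlier results of these data known. The alternatives were pseudocounts of 0.1 and 5 CPM, rescaling to a total of 1000000 CPM or to a median log2 ratio of 0, a baseline averaged over no HS and 8 h PHS, a filter at 10 CPM and a 1.5-fold line. Python 3.11.15, numpy 2.4.6, pandas 2.3.3, scipy 1.17.1 and matplotlib 3.10.9 were used.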

Additional observations from a re-analysis of the deposited data

Results flagged for a closer look

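SAK was the only member of the 10 whose change from no HS had opposite signs at 8 and 32 h PHS with both counting intervals clear of 0. The change was 0.43 at 8 h PHS and -0.46 at 32 h PHS. Both values use the no HS library, each time point has 1 library, and the difference was not tested beyond counting error.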

How the results depend on the processing

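With a pseudocount of 5 CPM, 0 members were lower by more than 2-fold at 32 h PHS in place of 1, since ana2 was then at -0.95 by construction of the scale. With a line at 1.5-fold 1 member was lower at 24 h PHS in place of 0. Under the other alternatives the counts past 2-fold stayed as given, and the median of the members at 32 h PHS lay between -0.25 and -0.10. Of the 40 changes (10 members at 4 times), 6 took the other sign under some alternative, namely Cep135 at 16, 24 and 32 h PHS, SAK at 16 h, ana1 at 32 h and ana2 at 8 h PHS, and each of these was within 0.10 of 0 as reported. No change beyond 2-fold changed sign. A baseline averaged over no HS and 8 h PHS moved the most values past their counting intervals (those of ana1 and ana3 at 16, 24 and 32 h PHS and of SAK at 16 and 24 h PHS). By construction this baseline takes in the 8 h PHS library, where SAK (0.43), ana1 (0.27) and ana3 (0.22) had the largest changes from no HS of the members. Why they were higher at 8 h PHS was not tested. SAK, Sas-6 and ana2, with between 211 and 332 reads in no HS, are the members that depth limits most. Leaving out a replicate was not possible, and no paired analysis was possible because each group has 1 library.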

Other observations

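A few genes of the ciliary and PCM lists were lowest in the middle of the time course and were back at or above their first level at 32 h PHS. They were picked after their values had been seen and most are expressed at a low level. gammaTub37C, the gamma-tubulin best known from the female germ line and early embryo, was at 6.91 (no HS), 5.34 (8 h), 1.19 (16 h), 3.05 (24 h) and 7.94 CPM (32 h PHS), which is 71, 143, 25, 87 and 188 reads. At 16 h PHS its log2 ratio to no HS had a counting interval of -3.26 to -1.87, and at 32 h PHS that interval was -0.20 to 0.61. DZIP1, a transition zone gene, was at 7.11 (no HS), 5.79 (8 h), 3.32 (16 h), 3.54 (24 h) and 9.96 CPM (32 h PHS). twy, related to the vertebrate distal appendage gene FBF1 by its RefSeq synonym, was at 17.0 (no HS), 15.5 (8 h), 8.97 (16 h), 9.77 (24 h) and 17.8 CPM (32 h PHS). B9d1 was at 6.04, 6.64, 3.61, 2.70 and 12.0 CPM in the same order. Each of these 4 genes was lower at 16 h PHS than in no HS and higher at 32 h than at 16 h PHS, with both counting intervals clear of 0. Since the genes were picked for this course, the intervals are no test of it.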
